A study of Mus musculus with 2 samples.

Results

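Prostaglandins and leukotrienes are lipid mediators made from arachidonic acid, and 9 genes of their synthesis and breakdown were followed here across the cell types of the mouse colon. The genes are Alox5, Alox5ap and Ltc4s of the leukotriene branch, and Ptgs1, Ptgs2, Hpgds, Ptges, Ptgis and Hpgd of the prostaglandin branch. They were chosen by gene symbol, and all 9 were among the 33083 genes listed in both libraries. The study is about the tuft cell, a scarce epithelial sensor of luminal signals, in a mouse model of Alzheimer's disease (AD). It holds 2 single-cell libraries of minced, trypsin-digested colon, 1 from wild-type (WT) mice and 1 from transgenic AD model mice, whose transgenes are known to be driven by the neuronal Thy1 promoter. The labels give no age, sex or number of animals for either library, and neither library received a labelled treatment.

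Since each genotype is represented by a single library, variation among animals is unknown. No test between genotypes could be made, every difference below is one between these 2 libraries, and genotype and library cannot be told apart. The unit throughout is the UMI, a tag on each captured RNA molecule, and levels (CPM) are summed UMIs per 1000000 UMIs of the same cells. Brackets after a CPM hold its exact Poisson interval, brackets after a log2 ratio of AD over WT hold its exact interval given the total count, and shares of cells carry Clopper-Pearson intervals, all at 95%. These intervals cover counting error only, and they are too narrow where a few cells hold most of the UMIs. A gene and class were compared where the libraries together held at least 20 UMIs of the gene in the class and each held at least 20 cells of it. A ratio of at least 2-fold was called.

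Arachidonic acid is freed from membranes by phospholipases A2 and then enters 1 of several branches. In the leukotriene branch, 5-lipoxygenase (Alox5) works with its activating protein (Alox5ap) to make leukotriene A4, which leukotriene C4 synthase (Ltc4s) joins to glutathione to give the cysteinyl leukotrienes. Tuft cells are known to release cysteinyl leukotrienes and prostaglandin D2 in type 2 immune responses. In the prostaglandin branch, the cyclooxygenases Ptgs1 and Ptgs2 make prostaglandin H2, Ptgs1 being known as the steady and Ptgs2 as the inducible form. Terminal synthases then make prostaglandin D2 (Hpgds), E2 (Ptges) or I2, also called prostacyclin (Ptgis). Hpgd starts the breakdown of prostaglandins, and prostaglandin E2 is known to support epithelial repair in the gut.

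All 9 genes are protein-coding in the GENCODE M21 annotation of mm10, from which the positions below are taken. The build behind the deposited gene list was not settled. Alox5 lies on chromosome 6 from 116410077 to 116461178 (minus strand), Alox5ap on chromosome 5 from 149264767 to 149288153 (plus), and Ltc4s on chromosome 11 from 50236461 to 50238616 (minus). Ptgs1 lies on chromosome 2 from 36230426 to 36252272 (plus) and Ptgs2 on chromosome 1 from 150100031 to 150108227 (plus). Hpgds lies on chromosome 6 from 65117293 to 65144908 (minus) and Hpgd on chromosome 8 from 56294585 to 56321043 (plus). Ptges and Ptgis lie on chromosome 2, from 30889471 to 30929863 and from 167191805 to 167240604 (both minus). Alox5ap overlaps Gm19719, Ltc4s overlaps Gm26542, and Ptgis overlaps 1110018N20Rik and Gm14291, all on the opposite strand and all listed in the libraries. The strand setting of the counting is not given in the sources used here, so reads of such pairs could be shared.

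Promoter sequence was available from RefSeq (GRCm38.p6) for 7 of the 9 genes, and 6 short motifs were searched on both strands of the 250 bases before each RefSeq start. Of the 32536 promoters in that table, 2.45% held GAGGAAGT, a purine-rich ETS-type motif, 1.62% held the octamer ATGCAAAT, and 33% held the GC box GGGCGG. The TATA box TATAAA was found in 12.3%, the E-box CACGTG in 6.04% and the cyclic AMP element core ACGTCA in 6.5%, and none of these last 3 was found in the windows of the 7 genes. The ETS-type motif was found in Ptgs1, 24 bases before the start, and in Hpgds, 49 bases before it. Both genes had macrophage-like and tuft-like cells as their highest pair of classes in both libraries, but so did Alox5 and Ltc4s, whose windows did not hold the motif. Hpgds also held the octamer, 174 bases before its RefSeq start. That start lies inside the GENCODE gene, which reaches 65144908 on the minus strand. Both Hpgds motifs therefore fell within the GENCODE gene and not upstream of it. The RefSeq starts of Ltc4s and Ptges also lay inside their GENCODE genes. The octamer is the motif class read by POU factors, among them Pou2f3, known as the factor that defines tuft cells. It was not found in the windows of Alox5 and Ltc4s, the genes that were highest in tuft-like cells in both libraries. The motifs were chosen after these sequences had been seen, and a match is a description of letters, not of a bound site. The sequences below are examples of windows that held a motif, shown so that its place can be seen, with motif letters in capitals. Hpgd and Ptges held the GC box too and are not shown. The first is the 30 bases around the ETS-type motif of Hpgds (chr6:65144761-65144790, minus), the second the 30 bases around its octamer (chr6:65144886-65144915, minus). The whole windows are those of Ptgs1 (chr2:36230176-36230425, plus; ETS-type motif), Ptgs2 (chr1:150099781-150100030, plus; GC box) and Alox5 (chr6:116461179-116461428, minus; GC box).
Hpgds ETS-type: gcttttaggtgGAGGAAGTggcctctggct
Hpgds octamer: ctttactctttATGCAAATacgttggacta
Ptgs1: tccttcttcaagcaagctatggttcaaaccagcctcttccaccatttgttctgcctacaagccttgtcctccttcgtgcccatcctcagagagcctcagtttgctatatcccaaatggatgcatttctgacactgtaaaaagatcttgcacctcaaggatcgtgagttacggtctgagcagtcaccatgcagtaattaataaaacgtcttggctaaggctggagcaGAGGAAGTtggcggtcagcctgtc
Ptgs2: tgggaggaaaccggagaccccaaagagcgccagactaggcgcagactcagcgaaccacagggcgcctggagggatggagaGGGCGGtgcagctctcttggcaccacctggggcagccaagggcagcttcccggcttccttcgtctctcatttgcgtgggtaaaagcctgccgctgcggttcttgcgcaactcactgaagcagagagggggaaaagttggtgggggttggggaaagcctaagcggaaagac
Alox5: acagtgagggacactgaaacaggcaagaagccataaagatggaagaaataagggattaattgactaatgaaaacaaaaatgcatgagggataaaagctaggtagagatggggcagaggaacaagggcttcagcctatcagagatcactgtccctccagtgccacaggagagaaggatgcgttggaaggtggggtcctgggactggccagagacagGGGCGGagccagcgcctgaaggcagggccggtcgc

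Before filtering, the WT library held 4146 barcodes with a median of 3846 UMIs and the AD library 6675 barcodes with a median of 3002, and 7 barcode sequences occurred in both. More than 25% of UMIs were mitochondrial in 60.4% of WT and 29.2% of AD barcodes. After a limit of 50% mitochondrial UMIs, 3269 WT and 6394 AD cells were kept. Clusters were named from marker genes, and names such as tuft-like mean no more than that. Plasma-like cells made up 1.74% of WT and 15.1% of AD cells. UMIs of 10 plasma markers reached 6841 CPM in AD tuft-like and 15702 CPM in AD fibroblast-like cells, against 524 and 497 CPM in WT, and the part of such free RNA in the results was not tested. The doublet caller marked 5 WT and 1 AD cells and so did not work, which means that doublets were in effect not removed.

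Over all kept cells, Ptgs2 stood 2.76-fold higher in the AD library, while Alox5 and Ltc4s were lower by more than 2-fold. Of the 9 genes, 1 was called higher, beside 6.52% of the 18397 genes compared, and 2 were called lower, beside 4.86%. Ptgs2 had 126 UMIs in WT (5.8 CPM) and 597 in AD (16.1 CPM), a log2 ratio of 1.47 [1.19, 1.76]. Alox5 had 199 UMIs in WT (9.17 CPM) and 94 in AD (2.53 CPM), a log2 ratio of -1.85 [-2.23, -1.49]. Ltc4s had 120 and 82 UMIs (5.53 and 2.21 CPM), a log2 ratio of -1.32 [-1.75, -0.91]. Its partner in the same branch, Alox5ap, stayed inside the 2-fold line at -0.63 [-0.98, -0.28]. The other 5 genes lay between -0.15 (Hpgd) and 0.49 (Ptges). The median over the 9 genes was 0.09, beside 0.02 over all genes compared. None of the 3 lay past 2-fold when the mitochondrial limit was set at 25%, which left 12 WT and 3 AD tuft-like cells: Ptgs2 was then at 0.98, Alox5 at -0.81 and Ltc4s at -0.50. A sum over all cells mixes how many cells of a type were caught with how much each cell held, so the classes are described one by one below.

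**Figure D1:**
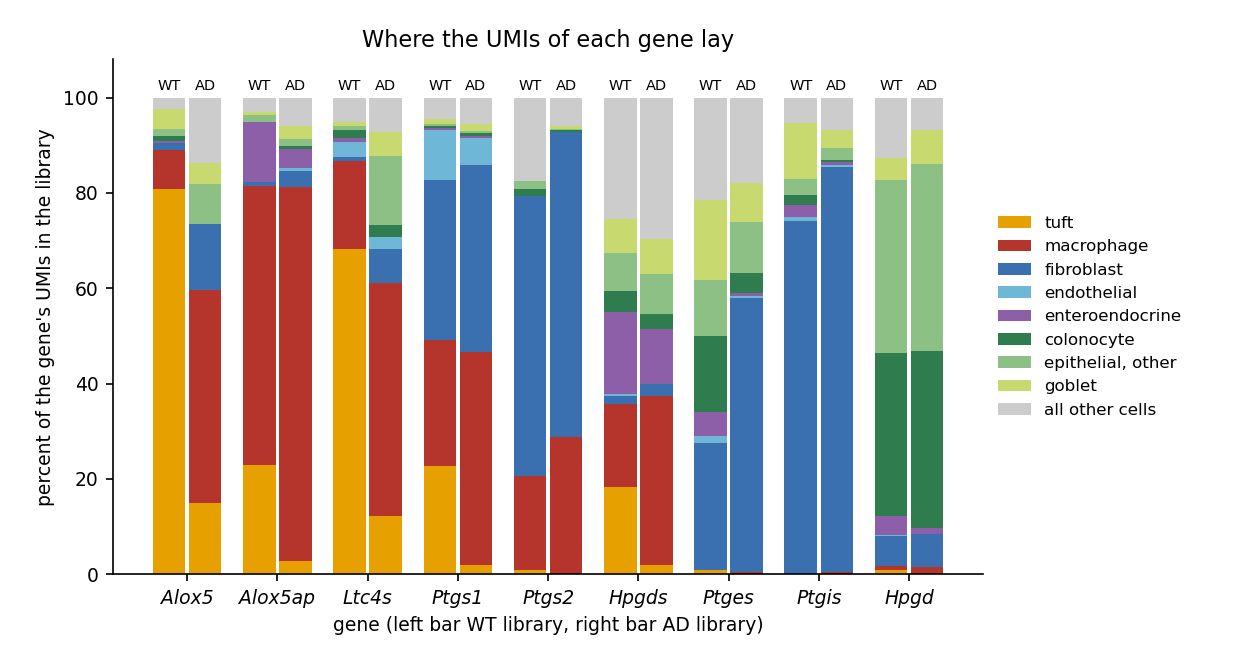
Share of each gene's UMIs (vertical axis, percent of the gene's UMIs over all kept cells) found in each cell class, with the WT library as the left and the AD library as the right bar of each pair. Tuft-like cells held 80.9% of Alox5 UMIs in WT and 14.9% in AD, while fibroblast-like cells held most Ptgs2 and Ptgis UMIs in both libraries.

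Where each gene was found was mostly the same in the 2 libraries: 7 of the 9 genes had the same highest class among 13 classes with at least 20 cells in each. Alox5 and Ltc4s were highest in tuft-like cells, and Alox5ap and Ptgs1 in macrophage-like cells. Ptges and Ptgis were highest in fibroblast-like cells, and Hpgd in colonocyte-like cells. The exceptions were Ptgs2, highest in fibroblast-like cells in WT and macrophage-like cells in AD, and Hpgds, highest in tuft-like cells in WT and macrophage-like cells in AD. For Hpgds the intervals of those 2 classes overlapped in both libraries, and for Ptgs2 they overlapped in WT but not in AD. Among the 7 genes, the highest class was not always apart from the next. For Ptgs1 the intervals of macrophage-like and tuft-like cells overlapped in both libraries, and 27 of its 66 WT macrophage UMIs lay in 1 cell. The highest 2 classes also overlapped for Alox5ap in AD and for Ptgis in WT. The plot of levels by class shows this pattern. UMI counts were not divided by transcript length, so the CPM of different genes are not set against each other.

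**Figure D2:**
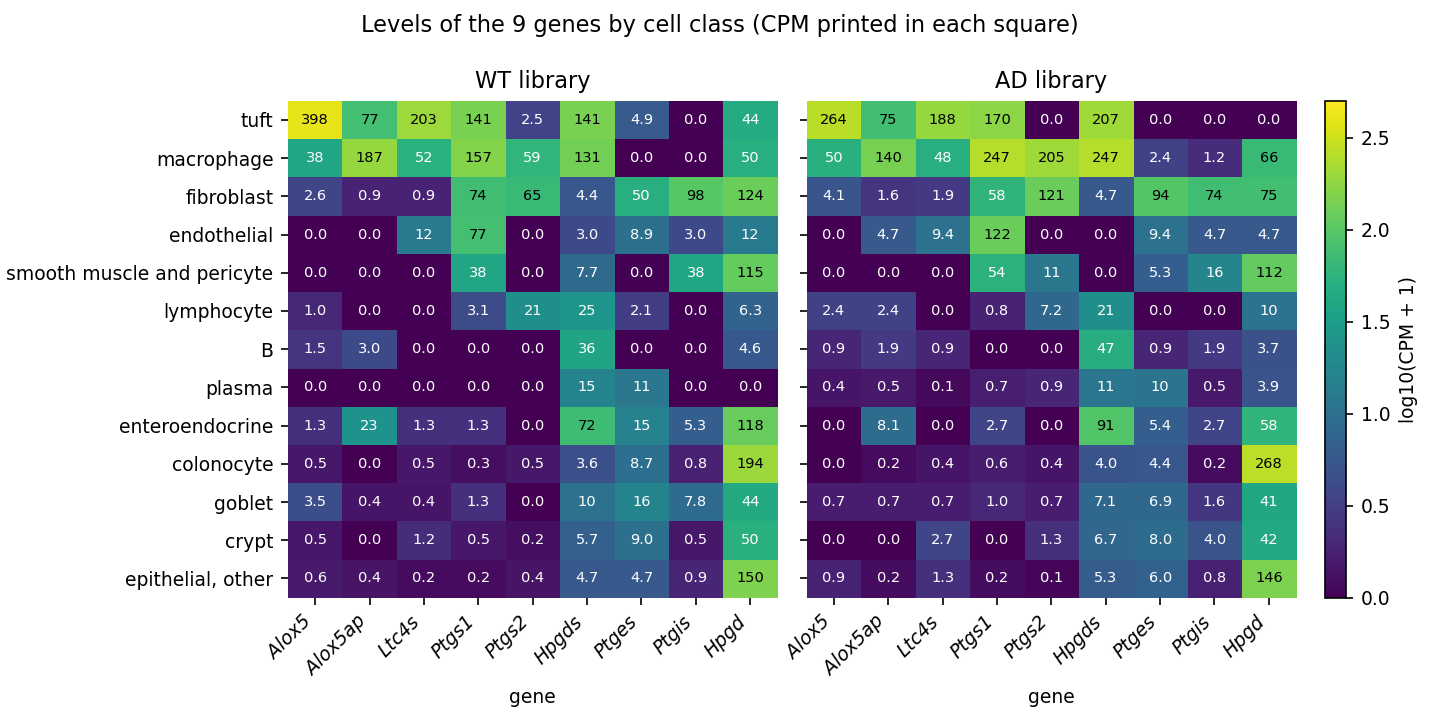
Level of each gene (horizontal axis) in each cell class (vertical axis), in CPM printed in the squares, with colour on a log10(CPM + 1) scale, for the WT library on the left and the AD library on the right. The leukotriene genes lie in the tuft and macrophage rows, Ptges and Ptgis in the fibroblast row, and Hpgd runs through the epithelial rows.

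Alox5 was the gene of the set with the largest share of its WT UMIs in tuft-like cells. In the 120 WT tuft-like cells it had 161 UMIs, or 398 CPM [339, 464], and 78 cells (65%) held at least 1. The 29 AD tuft-like cells gave 14 UMIs, or 264 CPM [144, 443], and 9 cells (31%) held at least 1. The log2 ratio was -0.55 [-1.5, 0.20], so the counting interval included no difference as well as one of more than 2-fold. Median depth was 2396 UMIs in WT and 1216 in AD tuft-like cells. When each cell was thinned to 1000 UMIs, 109 WT and 20 AD cells were deep enough, and the shares with an Alox5 UMI were 37.6% and 27.5%. In colonocyte-like cells, with median depths of 4116 and 8214 UMIs, the unthinned shares were 0.37% and 0% (upper limit 0.815%). Macrophage-like cells were the next class, at 38 CPM [21.7, 61.7] in WT and 50.2 CPM [36.1, 67.8] in AD, and their intervals did not overlap those of tuft-like cells.

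The called differences in Alox5 and Ltc4s over all cells were not seen when the tuft-like cells were left out. Tuft-like cells held 80.9% of WT Alox5 and 68.3% of WT Ltc4s UMIs, beside 14.9% and 12.2% in AD. Leaving them out therefore had to lower the WT levels most, so the values describe where the UMIs lay, and the cause was not tested. Tuft-like cells made up 3.67% of kept WT cells and 0.454% of kept AD cells. Without them, Alox5 had 38 UMIs in WT and 80 in AD, and its log2 ratio moved from -1.85 to 0.27 [-0.30, 0.87]. Ltc4s moved from -1.32 to 0.11 [-0.46, 0.73]. Neither then lay past 2-fold, and both had the opposite sign. Alox5ap, whose UMIs lay mostly in macrophage-like cells, moved from -0.63 to -0.32, and Ptgs2 stayed at 1.45. These recomputed values were chosen after the data had been seen.

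Ltc4s, the enzyme that makes the first cysteinyl leukotriene, had the same 2 highest classes as Alox5, tuft-like and then macrophage-like cells. Tuft-like cells had 82 UMIs in WT (203 CPM [161, 251]) and 10 in AD (188 CPM [90.4, 347]), a log2 ratio of -0.04. Thinned to 1000 UMIs, 13.8% of WT and 15% of AD tuft-like cells held a Ltc4s UMI, beside 34.2% and 20.7% unthinned. Macrophage-like cells had 52.2 and 47.8 CPM, and endothelial-like cells, where no Alox5 UMI was seen, came next at 11.8 and 9.41 CPM from 4 and 2 UMIs. The intervals of these 3 classes did not overlap in either library. No Ltc4s UMI was seen in 283 WT and 519 AD lymphocyte-like cells, where the intervals reach 3.85 and 2.97 CPM.

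Alox5ap, which presents arachidonic acid to 5-lipoxygenase, was distributed differently from the enzymes it serves. Macrophage-like cells led with 79 UMIs in WT (187 CPM [148, 234]) and 117 in AD (139.7 CPM [116, 167]), in 45% and 25.2% of cells. Thinned to 1000 UMIs, those shares were 15.9% and 13.9%. Tuft-like cells followed with 76.6 CPM [52, 109] in WT and 75.4 CPM [20.5, 193] in AD, the latter from 4 UMIs. The 2 classes differed beyond their intervals in WT but not in AD. Another source was enteroendocrine-like cells, the hormone-producing cells of the epithelium, with 17 UMIs in WT (22.8 CPM) and 6 in AD (8.06 CPM). In that class the log2 ratio was -1.42 [-3.13, -0.09], beside 6.3% of genes there called lower and 4.47% called higher. All of these UMIs lay in the Chgb and Tph1 cluster, at 26.7 and 11.2 CPM. The cluster led by Insl5 and Gcg held none in its 9 WT and 19 AD cells.

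Cells that carried all 3 leukotriene genes at once were few. In WT tuft-like cells, 93 of 120 (77.5%) held a UMI of at least 1 of the 3, 28 (23.3%) held both Alox5 and Ltc4s, and 8 (6.67% [2.92, 12.7]) held all 3. In AD tuft-like cells, 13 of 29 (44.8%) held at least 1, 3 held both Alox5 and Ltc4s, and 1 (3.45% [0.0873, 17.8]) held all 3. The intervals of the last share overlapped widely. Thinned to 1000 UMIs, a median of 55 of 109 WT and 9 of 20 AD cells held at least 1 of the 3, so at equal depth the shares lay closer together. In macrophage-like cells all 3 were found together in 0 of 80 WT and 1 of 226 AD cells, although Alox5 and Alox5ap met in 8 WT and 9 AD cells. A cell with no UMI of a gene may still express it at these depths.

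Tuft-like cells also carried the genes of the prostaglandin D2 route. Ptgs1 had 57 UMIs in WT (141 CPM) and 9 in AD (169.6 CPM), a log2 ratio of 0.33, and Hpgds had 57 and 11 (141 and 207 CPM), a ratio of 0.61. Both genes were seen together in 16 WT cells and 1 AD cell, and, thinned to 1000 UMIs, in a median of 3 of 109 and 0 of 20. Ptgs2 had 1 UMI in WT and 0 in AD tuft-like cells, Ptges 2 and 0, and Ptgis 0 in both. Hpgd had 18 UMIs in WT, 8 of them in 1 cell, and 0 in AD. Of the 9 genes, 5 could be compared in tuft-like cells and 0 were called, beside 9.36% of 2982 genes called higher and 8.95% called lower. The tuft-like class itself showed 21 of 21 tuft markers in WT and 19 of 21 in AD, where Gng13 and Tas1r3 were at 0, with summed marker levels of 9429 and 8367 CPM. Mitochondrial UMIs made up 34.5% and 32.7% of the UMIs of these cells, above the 23.4% and 14.1% over all kept cells.

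Of the 3 classes in which Ptgs2 could be compared, macrophage-like cells had the largest ratio by summed UMIs. They held 25 Ptgs2 UMIs in WT (59.3 CPM [38.4, 87.6]) and 172 in AD (205 CPM [176, 238]), a 3.4-fold difference and a log2 ratio of 1.77 [1.18, 2.46]. Of the 7 genes compared in this class, 1 was called higher, beside 8.37% of 6806 genes, and 0 lower, beside 4.13%. The UMIs were bunched: 5 of 80 WT cells and 35 of 226 AD cells (15.5%) held any, and the top cell held 10 in WT and 48 in AD. Thinned to 1000 UMIs, 3.03% of WT and 9.83% of AD cells held a Ptgs2 UMI. In B-like cells, with median depths of 2447 and 1923 UMIs beside 3162 and 2438 here, 0 of 256 WT and 0 of 506 AD cells held one (upper limits 1.43% and 0.726%). When each cell was given equal weight, as a mean of per-cell CPM, the log2 ratio was -0.23 in place of 1.77, so the direction depended on how cells were weighted. The AD cells of this class also held 12155 CPM of plasma markers against 358 in WT.

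The class was a mixture, as markers of dendritic cells summed to 871 CPM in WT and 429 CPM in AD beside 11641 and 13467 CPM of macrophage markers. It was therefore divided, after the data had been seen, into cells with and without a UMI of the C1q genes, which are known markers of tissue macrophages. There were 48 WT and 160 AD cells with C1q, holding 222568 and 595537 UMIs in all, and 32 and 66 without, holding 198787 and 241898. Flt3 and Cd209a, known from dendritic cells, were at 287 and 654 CPM in WT cells without C1q, and at 8.99 and 103 CPM in those with it. In AD they were at 128 and 260.4 CPM without C1q, and at 1.68 and 73.9 CPM with it. Without C1q their log2 ratios were -1.15 [-1.84, -0.51] and -1.32 [-1.79, -0.88], so that group was not the same mixture in both libraries. The genes of the set differed between cells with and without C1q.

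Ptgs1 and Hpgds, the prostaglandin D2 pair, lay with C1q. In cells with C1q, Ptgs1 had 297 CPM in WT and 329 in AD (66 and 196 UMIs), and Hpgds had 234 and 332 CPM (52 and 198 UMIs). Of those 66 WT Ptgs1 UMIs, 27 lay in 1 cell. In cells without it, Ptgs1 had 0 and 11 UMIs and Hpgds 3 and 9. Alox5 lay on the same side, with 15 and 37 UMIs with C1q against 1 and 5 without, as did Ltc4s, with 21 and 39 against 1 and 1. Alox5ap went the other way, with 135 CPM in WT and 82.3 in AD among cells with C1q, and 246 and 281 CPM among cells without. By summed UMIs, Ptgs2 was higher in AD on both sides. It had 7 and 118 UMIs with C1q (31.5 and 198 CPM, log2 ratio 2.56 [1.57, 4.0]). Without C1q it had 18 and 54 (90.5 and 223 CPM, log2 ratio 1.28 [0.51, 2.16]). All WT Ptgs2 UMIs of the class lay in 5 cells, and 1 AD cell held 48 of 172. Shares of all genes past 2-fold were not computed for these 2 groups of cells. With equal weight per cell the sign over the whole class turned, and that weighting was not applied to the 2 groups. Il1b, an inflammatory cytokine gene outside the rule for named genes, was added after the data had been seen. It was higher in AD with C1q, with 47 and 526 UMIs (211 and 883 CPM, log2 ratio 2.05 [1.63, 2.53]). Without C1q it was lower, with 133 and 86 UMIs (669 and 356 CPM, log2 ratio -0.91 [-1.32, -0.51]).

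**Figure D3:**
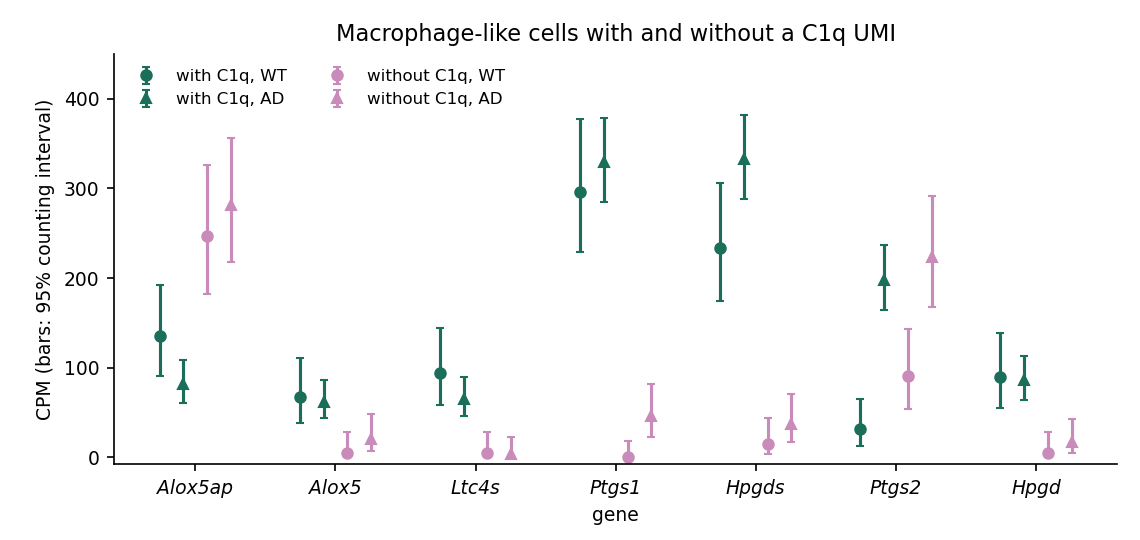
Levels (vertical axis, CPM, with 95% counting intervals as bars) of 7 genes in macrophage-like cells with a C1q UMI (green) and without (pink), in WT (circles) and AD (triangles). Ptgs1 and Hpgds lie at 234 to 332 CPM with C1q and at 45.5 CPM or less without it, and Ptgs2 is the gene of the 7 whose WT and AD intervals are apart on both sides. All WT Ptgs2 UMIs shown come from 5 cells, and 27 of the 66 WT Ptgs1 UMIs come from 1 cell.

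Over the whole macrophage-like class, Hpgds had a log2 ratio of 0.91 [0.49, 1.38] and Ptgs1 one of 0.65 [0.25, 1.08], both inside the 2-fold line. For Ptgs1, 27 of 66 WT UMIs came from 1 cell, and without the top cell of each library its ratio was 1.30, past 2-fold. Among cells with C1q alone, those ratios were 0.50 [0.06, 0.98] and 0.14 [-0.26, 0.58], and cells with C1q were 160 of 226 in AD and 48 of 80 in WT. All 66 WT Ptgs1 UMIs lay in cells with C1q, so the WT cell with 27 of them was kept in the 0.14. No ratio without that cell was computed for the cells with C1q. In the whole class, Alox5ap was at -0.43, Alox5 at 0.37, Ltc4s at -0.14 and Hpgd at 0.38. The median of the 7 genes was 0.38, beside 0.07 over all genes of the class. Ptgs1 and Hpgds were seen together in 12 WT cells (15%) and 38 AD cells (16.8%).

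Fibroblast-like cells carried the routes to prostaglandin E2 and prostacyclin, and held Ptgs2 in both libraries. Ptgs2 had 74 UMIs in WT (64.9 CPM [50.9, 81.4]) and 382 in AD (121 CPM [109, 134]), in 12.5% and 18.8% of cells, a log2 ratio of 0.89 [0.53, 1.28]. Ptges had 57 UMIs (50 CPM) and 296 (93.6 CPM), in 16.4% and 25.1% of cells, a ratio of 0.90 [0.49, 1.34]. Both stood higher in AD beyond counting error but short of 2-fold. At 1000 UMIs per cell the shares were 3.95% and 9.41% for Ptgs2 and 4.82% and 10.2% for Ptges. The opposite sign was seen for 3 genes. Ptgis was at 98.2 and 74 CPM (-0.41 [-0.74, -0.07]), Ptgs1 at 73.6 and 57.5 CPM (-0.36), and Hpgd at 124 and 74.6 CPM (-0.73 [-1.03, -0.42]). So in these 2 libraries Ptgs2 and Ptges were higher in AD fibroblast-like cells, and Ptgis and Hpgd lower. The interval of Ptgs1 [-0.74, 0.04] included no difference, and Hpgds was at 0.02. Amounts of prostaglandin were not measured. Of the 6 genes compared, 0 were called, beside 5.63% of 11426 genes called higher and 2.51% called lower. The median was -0.17, beside 0.01 over all genes.

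The 3 fibroblast-like clusters differed in which of these genes they carried. The largest, led by Pi16, a marker of adventitial fibroblasts, had 126 WT and 482 AD cells. The second, led by Adamdec1 and Cxcl13, had 102 and 343 cells. The third, with Sox6 and Wnt5a, had 28 and 39 cells, and Sox6 mRNA stood there at 1851 and 1796 CPM. Ptgis was highest in the Pi16 (139 and 110.1 CPM) and Sox6 clusters (178 and 124 CPM), and at 28 and 18.1 CPM in the Adamdec1 cluster. Ptgs1 was highest in the Sox6 cluster, at 275 and 198 CPM, against 45.2 to 53.8 CPM in the other 2 clusters over both libraries. Ptges had its highest level in the Adamdec1 cluster, at 81.8 and 144 CPM.

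The difference in Ptgs2 was not spread evenly over these clusters. In the Pi16 cluster it had 50 and 151 UMIs, or 90.5 and 89.4 CPM, a log2 ratio of -0.03 [-0.49, 0.47]. In the Adamdec1 cluster it had 24 and 201 UMIs, or 51.7 and 158 CPM, a ratio of 1.59 [1.00, 2.29], from 12 WT and 82 AD cells with a UMI. In the Sox6 cluster it had 0 UMIs in WT and 30 in AD (149 CPM, in 10 cells, the top one with 10 UMIs). The AD level was 6.14-fold that of a floor of 3 counts in the 28 WT cells. The counting interval of the log2 ratio began at 2.23 and had no upper end. Ptgs2 was called higher in 2 of the 3 clusters, beside 6.68%, 5.17% and 9.66% of genes called higher in the Pi16, Adamdec1 and Sox6 clusters, and lower in none, beside 4.14%, 3.21% and 3.79%. Whether the clusters' ratios differ was not tested. Ptges was higher in the Pi16 cluster too, at 27.1 and 61 CPM (1.13 [0.38, 2.06]), and Hpgd was lower there, at 136 and 71 CPM (-0.94 [-1.36, -0.50]). In the Adamdec1 cluster the ratio of Ptges was 0.80 [0.30, 1.36] and that of Hpgd -0.55 [-1.09, 0.03].

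**Figure D4:**
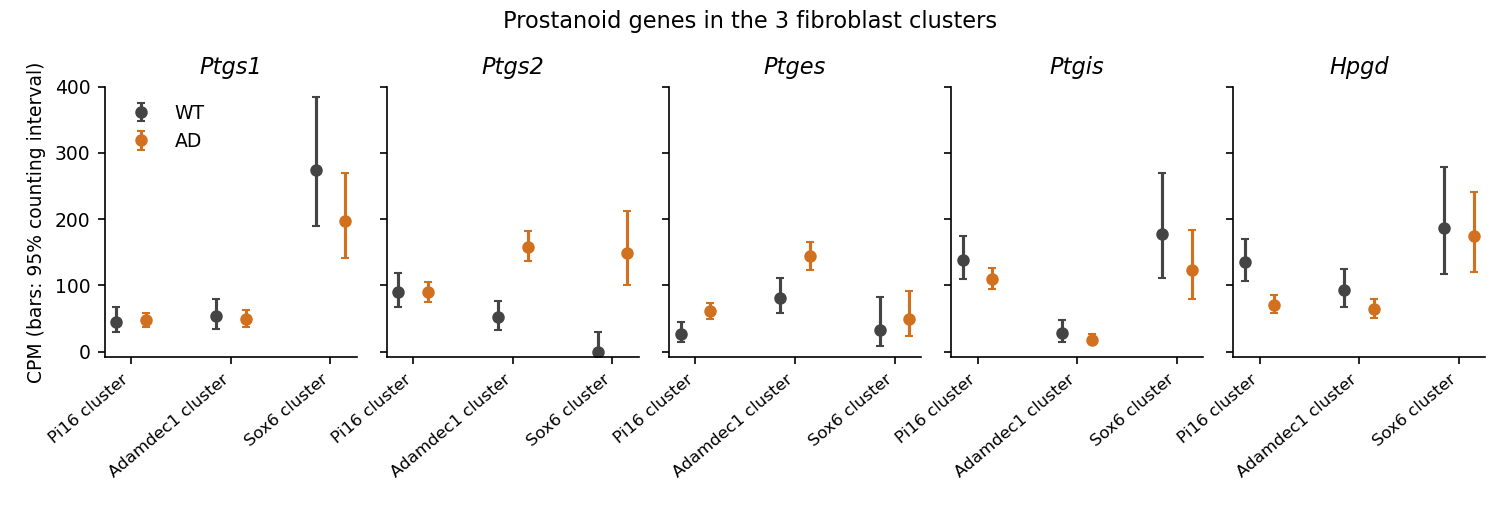
Levels (vertical axis, CPM, with 95% counting intervals as bars) of 5 prostaglandin genes in the Pi16, Adamdec1 and Sox6 clusters of fibroblast-like cells, WT in grey and AD in orange. Ptgs2 is level in the Pi16 cluster (90.5 and 89.4 CPM) and higher in AD in the other 2, and Ptgs1 is highest in the Sox6 cluster.

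Ptgs2 and Ptges were seen in the same cell in 7 of 256 WT (2.73%) and 64 of 864 AD fibroblast-like cells (7.41%). Ptgs1 and Ptgis met in 18 WT (7.03%) and 35 AD cells (4.05%), and Ptgs2 and Ptgis in 8 and 33. The first pair had the higher share in AD and the second in WT, as had the single genes they are made of. In lymphocyte-like cells, with median depths of 3032 and 2050 UMIs beside 3993 and 2812 in fibroblast-like cells, Ptgis was seen in 0 of 283 WT and 0 of 519 AD cells (upper limits 1.3% and 0.708%). Because early-response genes can be induced by tissue digestion, 16 of them, such as Fos and Jun, were summed after the data had been seen. They reached 11956 CPM in WT and 13631 CPM in AD fibroblast-like cells, and 21898 and 24103 CPM in macrophage-like cells. The median ratios of those 16 genes were 0.34 and 0.14, and their part in the Ptgs2 difference was not tested.

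Ptgs2 had the opposite sign in lymphocyte-like cells. It had 20 UMIs in WT (20.9 CPM [12.7, 32.2]) and 9 in AD (7.24 CPM [3.31, 13.7]), a log2 ratio of -1.48 [-2.85, -0.33], beside 3.03% of 8413 genes called lower and 7.7% called higher. These UMIs came from 6 WT and 4 AD cells. The cluster led by Il17a, Calca and Gata3 held 19 of the 20 and all 9 of them, at 86.3 and 21.4 CPM (-1.97 [-3.34, -0.80]), beside 3.96% of genes called lower there and 8.63% called higher. The cluster led by Cd8a and Ccl5 held 0 in its 203 WT and 204 AD cells. So few cells carried the gene that this ratio rests on single cells: the top one held 8 UMIs in WT and 5 in AD. Hpgds was the other gene that could be compared in the class, at 25 and 20.9 CPM. In WT most of it, 22 of 24 UMIs, lay in the Cd8a cluster.

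Hpgds, which makes prostaglandin D2, could be compared in 11 classes, more than any other of the 9 genes. Tuft-like and macrophage-like cells led in both libraries. Enteroendocrine-like cells came next, at 72.3 CPM [54.3, 94.3] in WT and 91.3 CPM [70.9, 116] in AD, in 32.5% and 33.7% of cells. There the Insl5 and Gcg cluster had 109 and 149.9 CPM and the Chgb and Tph1 cluster 65.9 and 68.8 CPM. B-like cells followed at 36.5 and 47.4 CPM. Colonocyte-like cells, at 3.57 and 4.02 CPM, were among the lowest. Ratios for Hpgds in those classes ran from -0.62 in plasma-like to 0.91 in macrophage-like cells, and none was called.

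Hpgd, the breakdown enzyme, was the most widely detected gene of the set, with a UMI in 786 WT and 1291 AD cells. Colonocyte-like cells had 194 CPM [180.4, 208] in WT and 268 CPM [254, 283] in AD, in 42.2% and 71.8% of cells at median depths of 4116 and 8214 UMIs. In plasma-like cells, at median depths of 6919 and 6260 UMIs, the shares were 0% (upper limit 6.27%) and 2.8%. The colonocyte ratio was 0.47 [0.34, 0.60], but the class was made of different clusters in the 2 libraries. The Tmigd1 and Krt20 cluster had 250 WT and 446 AD cells at 230.3 and 269 CPM, and the Aqp8 and Car4 cluster had 290 WT and 5 AD cells, with 96 CPM in WT. Crypt-like cells, which hold stem and dividing cells, had 50.5 and 41.5 CPM, below colonocyte-like cells in both libraries. The other epithelial cells had 150.4 and 146 CPM. In enteroendocrine-like cells Hpgd was at 118 and 57.7 CPM, a called ratio of -1.02 [-1.59, -0.49], and at 132 and 70.6 CPM in the Chgb and Tph1 cluster alone. Smooth muscle and pericyte-like cells had 115 and 112 CPM, from 6 WT and 7 AD cells with a UMI.

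Ptgs1 in endothelial-like cells was at 77 CPM [50.3, 113] in WT and 122 CPM [79.9, 179] in AD, with 26 UMIs in 12 cells of each library. The ratio of 0.67 was not called, beside 6.75% of genes there called higher and 4.37% called lower. In goblet-like cells, which make mucus, 2 of the 4 genes compared were called lower and 0 higher, beside 4.91% and 3.52% of 11158 genes. Ptges there was at 15.5 and 6.92 CPM (-1.17 [-1.85, -0.48]), from 15 and 24 cells with a UMI. Ptgis was at 7.77 and 1.65 CPM (-2.21 [-3.52, -1.05]), from 18 UMIs in WT and 10 in AD, but 13 of the WT UMIs lay in 1 cell. Without the top cell of each library the ratio was -1.15, but fewer than the 20 UMIs needed for a comparison were left, so it was not a call. Ptges in plasma-like cells had 5 UMIs in WT and 74 in AD, at 10.9 and 10 CPM, so that class held 14.4% of all AD Ptges UMIs and 2.34% of those in WT. In colonocyte-like cells Ptges was at 8.68 and 4.44 CPM, a ratio of -0.95 that was not called.

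Of the 117 pairs of gene and class, 42 could be compared, 1 was called higher and 5 lower. Over all pairs of gene and class in these 13 classes, 6.09% were called higher and 4.68% lower. The pair called higher was Ptgs2 in macrophage-like cells. Those called lower were Ptgs2 in lymphocyte-like cells, Alox5ap and Hpgd in enteroendocrine-like cells, and Ptges and Ptgis in goblet-like cells. In 14 of the 42 the counting interval excluded 0, and those included the 6 called. The plot of ratios gives the 42 except Hpgd in plasma-like cells, which had 0 UMIs in WT and 29 in AD.

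**Figure D5:**
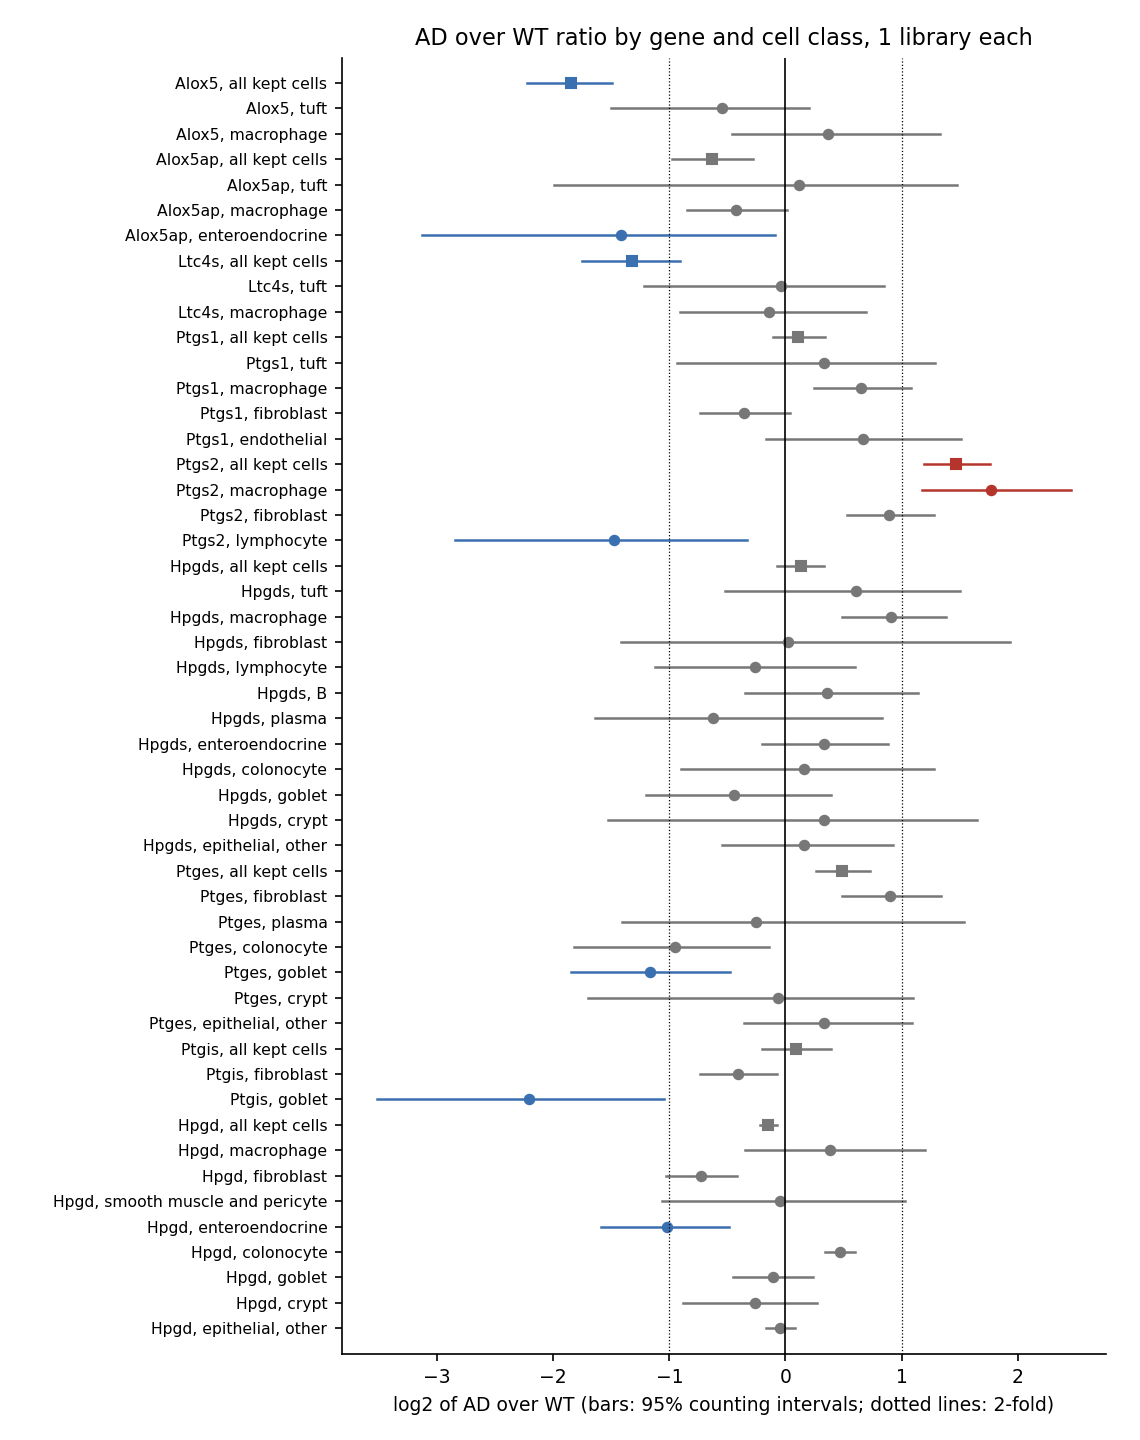
Log2 ratio of AD over WT (horizontal axis) for each gene over all kept cells (squares) and in each class where it could be compared (circles), with 95% counting intervals as bars and dotted lines at 2-fold. Hpgd in plasma-like cells, with 0 UMIs in WT, is not drawn. Red marks ratios past 2-fold higher and blue those past 2-fold lower; Ptgs2 is red over all cells and in macrophage-like cells and blue in lymphocyte-like cells.

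The rest of the pathway was read from a list of 58 genes, of which 56 were listed in the libraries and 42 could be compared over all kept cells. Of those, 1 was called higher and 1 lower, beside 6.52% and 4.86% of all genes. The one higher was Cysltr2, a receptor for cysteinyl leukotrienes, with 66 and 269 UMIs (1.25 [0.86, 1.66]); 188 of the AD UMIs lay in plasma-like cells, where its level was 28.4 CPM in WT and 25.5 in AD. The one lower was Alox12, a lipoxygenase known from platelets, with 37 and 16 UMIs (-1.96 [-2.93, -1.10]). Slco2a1, the transporter that takes prostaglandins into cells for breakdown, reached -1.0 without passing the line. Its main class was endothelial-like cells, at 1243 and 950.4 CPM, and these made up 3.27% of WT and 1.25% of AD cells.

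Within the 13 classes, 228 pairs of a pathway gene and a class could be compared, and 20 (8.77%) were called higher and 9 (3.95%) lower, beside 6.09% and 4.68% over all genes. In fibroblast-like cells 28 of the 56 could be compared, and 4 were called higher and 0 lower, beside 5.63% and 2.51% of all genes there. They were the phospholipases Pla2g4c (1.09), Pla2g10 (1.34) and Pla2g6 (1.39) and the leukotriene receptor Cysltr1 (1.13), each from few UMIs. Pla2g4a, the cytosolic phospholipase A2 best known for feeding the cyclooxygenases, was at 105 and 132 CPM there (0.33 [0.03, 0.63]). In macrophage-like cells 15 could be compared and 0 were called, beside 8.37% and 4.13%. Tbxas1, thromboxane synthase, was at 135 and 216 CPM (0.67 [0.24, 1.13]), and Ptger4, a prostaglandin E2 receptor, at 239.7 and 168 CPM (-0.51 [-0.89, -0.13]). In tuft-like cells 8 could be compared, 1 was called higher and 2 lower, beside 9.36% and 8.95%. They were Pla2g4a (18 and 6 UMIs; 1.42), and Mgst3 (230 and 8 UMIs; -1.83) and Cbr1 (27 and 1 UMIs; -1.26). Mgst3, a microsomal glutathione transferase, was at 1089 and 1284 CPM in colonocyte-like cells. Colonocyte markers summed to 1240.1 CPM in WT and 697 CPM in AD tuft-like cells, and their part in the Mgst3 value was not tested. The leukotriene receptor Cysltr1 was also called higher in endothelial-like cells, at 59.2 and 127 CPM (1.09 [0.21, 2.01]).

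Among 10922 other genes ranked by the likeness of their levels over the 13 classes, those nearest to Ptgs1 were Sec14l1 (Pearson r of 0.87 in WT and 0.92 in AD), Cmtm3 (0.87 and 0.96) and Plod1 (0.86 and 0.90). Nearest to Hpgds were Vav1 (0.78 and 0.84), Otulinl (0.78 and 0.89) and Gpcpd1 (0.90 and 0.77), and nearest to Hpgd were Vdac1 (0.89 and 0.90), Aph1b (0.89 and 0.88) and Plce1 (0.94 and 0.86). Nearest to Ptges were Wipi1 (0.81 and 0.73), Pcgf2 (0.79 and 0.69) and Gm15417 (0.78 and 0.69), the weakest likeness of the 4. The points are 13 classes of 1 library each, which share depth and free RNA, so these are descriptions. The other 5 genes had fewer than 200 UMIs in at least 1 library and were not ranked.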

How the data were processed

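Single-cell libraries of minced colon, 1 WT and 1 AD, were used. Values deposited by the authors are whole UMI counts for every gene in every barcode, not normalized; the submitters' processing notes name Cell Ranger 3.0.1, STAR, Seurat 3.0.2 and mm10. No barcode held fewer than 500 UMIs, and the 20-base barcodes leave the kit unsettled. Of the 33083 gene identifiers, 94.8% were in GENCODE M21, so the annotation used by the authors was not settled.

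The cell filter required 500 UMIs and 200 genes and allowed 50% mitochondrial UMIs, since a limit of 25% left too few tuft-like cells. Scanpy 1.11.5 scaled counts to 10000, took 2000 variable genes without the genes described here, 30 components and 15 neighbours, and clustered with leidenalg 0.10.2 (igraph 0.11.9, scikit-learn 1.9.0) at resolution 1. Doublets were scored with Scrublet at a rate of 0.06. A cluster took a class name when at least 3, and at least 0.3, of its markers were found in 10% of cells and 4-fold above the rest. No other marker list could then hold more of the cluster's 10 leading genes. Colonocyte and crypt names were given only to epithelial clusters left without a name, at 2-fold above the other epithelial clusters. Epithelial clusters that met neither rule were called other epithelial.

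UMIs were summed per class and library; 0.5 counts were added for log2 ratios, and a library at 0 was set at a floor of 3 counts for calls. Thinning used 20 draws, and the median is given. Scripts ran in Python 3.11.15 with scipy 1.17.1, numpy 2.4.6, matplotlib 3.10.9 and pandas 2.3.3, with TMM factors from edgeR 4.0.16 in R 4.3.3 as an alternative scaling. The ratio calculation was tested on simulated data. The rule for named genes takes all 9 genes, pathway genes beside their group, and for each gene with 200 UMIs per library the 3 most alike. The genes and lists were chosen with earlier results of these data known.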

Additional observations from a re-analysis of the deposited data

Results flagged for a closer look

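Ptgs2 was flagged because its AD over WT ratio pointed in opposite directions in 2 cell classes. It was higher in AD among macrophage-like cells (log2 1.77 [1.18, 2.46]) and lower in AD among lymphocyte-like cells (log2 -1.48 [-2.85, -0.33]). With 1 library per genotype the difference between the classes was not tested. The macrophage ratio was -0.23 as a mean of per-cell CPM, and the 2 classes then pointed the same way. The macrophage value rested on 5 WT and 35 AD cells with a UMI, and the lymphocyte value on 6 and 4.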

How the results depend on the processing

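No paired analysis was possible because each genotype has 1 library and the labels give no replicate numbers. Across 13 planned settings, 51 ratios were recomputed as 654 values; 628 lay within the interval of the reported ratio, 25 outside it, and 1 reversed. The reversal was Ptgs2 in macrophage-like cells, at -0.23 as a mean of per-cell CPM; the cause was not tested. With 25% mitochondrial UMIs allowed, 43 ratios could be recomputed and 8 of them lay outside the interval, the most of any planned setting. No ratio in tuft-like or other epithelial cells could be checked there, as too few cells were left. The calls over all kept cells then went from 1 higher and 2 lower to 0 higher and 0 lower. Among gene and class pairs, reported as 1 higher and 5 lower, a minimum of 1000 UMIs per cell gave 3 lower, and a mean of per-cell CPM gave 2 higher. Leaving out the top cell of each library gave 2 higher, with Ptgs1 in macrophage-like cells at 1.30, and 3 lower. A minimum of 50 UMIs per gene gave 2 lower, and one of 1 UMI gave 5 higher and 11 lower, as fewer or more pairs were then compared. Thinned to 1000 UMIs, the share of tuft-like cells with Alox5, Alox5ap and Ltc4s was 0.917% in WT and 0% in AD. Without tuft-like cells, a setting added later, Alox5 was at 0.27 and Ltc4s at 0.11 over all kept cells. TMM scaling, other resolutions, another seed and using these genes for clustering moved 1 value in all outside its interval. Keeping doublets moved none, but it brought back only 5 WT and 1 AD cells and so cannot show whether doublets matter. Depth limits the tuft-like class most, with 53066 UMIs in AD.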

Other observations

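Mast cells are a known source of leukotrienes and prostaglandin D2, and no cluster of them was found. In the AD library 6 cells held UMIs of at least 3 mast cell markers, spread over several classes, and in the WT library 0 did. Those 6 cells held 49848 UMIs in all, of which 5 were Hpgds, 3 Alox5ap, 1 Alox5 and 1 Hpgd, and none Ltc4s, Ptgs1, Ptgs2, Ptges or Ptgis. One of them lay in the lymphocyte-like class, where mast cell markers summed to 694 CPM in AD and 2.09 CPM in WT.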
